A study of Homo sapiens with 6 samples.

Results

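The genes of the mitochondrial ribosomal proteins were described in NCRM-1 aggregates, a human induced pluripotent stem cell (hiPSC) line, grown with and without polymer additives. Members were all genes in the count files whose GENCODE 44 symbol is MRPL or MRPS followed by a number and, in some, a letter from A to C. This rule found 78 of the 19977 genes, of which 49 were MRPL genes, named for the large subunit, and 29 were MRPS genes, named for the small subunit. All 78 are protein-coding, lie on 21 chromosomes and passed the filter on low counts. The rule used names only and no measured value.

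NCRM-1 is an established line made from CD34+ cord blood by episomal reprogramming. Aggregates were kept in suspension in vertical wheel bioreactors for 4 days in E8, a defined medium for pluripotent cells, and 50% of the medium was replaced on day 2. The PEG and HS group (n = 3) received E8 with 10 mg/ml polyethylene glycol (PEG) and 0.1 µg/ml heparin sodium salt (HS), and the Control group (n = 3) received E8 without additives. The comparison asks how the additives changed transcript levels in the aggregates. The labels conflict, since their protocol text gives PEG and heparin for all 6 libraries, and the treatment stated for each library was followed. The labels speak of a single bioreactor per medium, so medium and vessel cannot be told apart, and all p-values measure the spread between these samples, which may be technical.

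Mitochondria carry their own ribosome, which makes the few proteins encoded in mitochondrial DNA, all of them subunits of the respiratory chain and ATP synthase. Its RNAs are transcribed inside the organelle, but every one of its proteins is encoded in the nucleus, made on cytosolic ribosomes and imported. Some of these proteins descend from bacterial ribosomal proteins and others were added in the mitochondrial lineage. Pluripotent stem cells are known for a strong reliance on glycolysis and for mitochondria with few cristae. The genes are expressed in nearly every cell type, and their promoters are known for binding sites of ETS factors such as GABP, of NRF1 and of YY1.

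The promoters of 6 members whose transcript level differed between the media are shown first, 5 with letters that occur in many promoters of the group and 1, MRPL24, without them. Each runs from 120 bases before to 30 bases after the RefSeq start (GRCh38.p14), 5′ to 3′ on the strand of the gene. Capitals mark matches, on either strand, to the ETS core CCGGAAG (reverse CTTCCGG), to the NRF1 letters (GCGC, any base, then TGCGC) or to the YY1 letters AAGATGGCG (reverse CGCCATCTT).
MRPL3 (chr3:131502942-131503091, minus strand): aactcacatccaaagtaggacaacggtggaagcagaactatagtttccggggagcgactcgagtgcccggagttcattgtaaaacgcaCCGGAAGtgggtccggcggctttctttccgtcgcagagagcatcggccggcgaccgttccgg
MRPL36 (chr5:1799808-1799957, minus strand): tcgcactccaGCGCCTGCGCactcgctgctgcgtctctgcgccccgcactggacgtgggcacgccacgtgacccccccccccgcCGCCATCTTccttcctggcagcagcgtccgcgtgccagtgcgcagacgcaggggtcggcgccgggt
MRPL52 (chr14:22829767-22829916, plus strand): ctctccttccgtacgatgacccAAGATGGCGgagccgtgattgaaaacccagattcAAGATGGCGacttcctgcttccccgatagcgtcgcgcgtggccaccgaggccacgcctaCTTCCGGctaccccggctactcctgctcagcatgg
MRPL28 (chr16:370509-370658, minus strand): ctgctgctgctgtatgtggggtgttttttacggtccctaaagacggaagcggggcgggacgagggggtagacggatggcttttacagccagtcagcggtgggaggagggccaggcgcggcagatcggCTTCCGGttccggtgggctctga
MRPL27 (chr17:50373155-50373304, minus strand): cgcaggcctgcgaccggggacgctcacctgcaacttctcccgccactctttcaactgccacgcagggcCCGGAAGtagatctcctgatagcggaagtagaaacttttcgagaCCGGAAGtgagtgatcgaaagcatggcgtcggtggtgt
MRPL24 (chr1:156741059-156741208, minus strand): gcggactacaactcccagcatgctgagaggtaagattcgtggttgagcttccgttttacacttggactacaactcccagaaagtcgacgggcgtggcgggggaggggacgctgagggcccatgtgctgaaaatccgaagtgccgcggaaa
MRPL24 has none of the matches, MRPL27 has the ETS core at 2 places, and MRPL52 holds 2 YY1 matches beside an ETS match. Among promoters not shown of members that differed, that of MRPS30 has a YY1 match, and those of MRPL19 and MRPS35 have none of the matches. The ETS core occurs both in genes that were higher in PEG and HS (MRPL3, MRPL52) and in genes that were lower (MRPL28, MRPL27).

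Over the longer RefSeq window, from 250 bases before to 50 bases after the start, 69 of the 78 members have an entry. The ETS core was found in 29 of the 69 (42.0%), against 10.3% of all 35116 windows of this length in the table. The YY1 letters were found in 13 members (18.8%, against 1.75% of all windows) and the NRF1 letters in 8 (11.6%, against 5.78%). At least 1 of these was found in 43 members (62.3%, against 16.1%). TATAAA was found in 2 members (2.90%, against 11.5%). No member window had matches of different motifs that share bases. The 35116 windows outnumber the 19977 genes of the count files and were not matched to the members in level. The shares in promoters of expressed genes alone were not taken. A match gives letters, not a bound factor. Among members with an adjusted p under 0.05, as given below, 9 have an entry and 6 of these hold at least 1 of the first 3 motifs, beside the 62.3% of all members with an entry.

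Every member was detected in every library, from 224 to 5723 counts in a library. Depth was 26991279 to 36185138 counts per library. Levels are given in CPM, counts scaled to a common library size with TMM, and, to compare genes with each other, in CPM per kb of the annotated canonical transcript. The mean over the 6 libraries ran from 9.22 CPM for MRPL40 to 159 CPM for MRPL3, with a median of 46.1 CPM. Per length, the members spanned a 21.3-fold range, from 5.14 to 110 CPM per kb, with a median of 35.6. The median over all 16505 genes tested was 5.41 CPM per kb.

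MRPS34, a mitochondria-specific protein of the small subunit, had the highest level per length, at 110 ± 2.53 CPM per kb (SD, n = 6), with a range of 107 to 114 over the libraries. MRPL51, a mitochondria-specific protein of the large subunit, followed at 103 ± 6.00 CPM per kb (97.9 to 115), and its range overlapped that of MRPS34. MRPL3, the homologue of a bacterial protein that joins the large subunit early in its assembly, had 92.9 ± 5.44 CPM per kb (86.0 to 99.0). The ranges of MRPL3 and MRPL51 overlapped, while that of MRPS34 lay above all 6 values of MRPL3.

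At the other end, MRPS33 had 5.14 ± 0.36 CPM per kb (SD, n = 6), MRPL42 had 5.80 ± 0.37 and MRPS11 had 8.32 ± 0.34. Their annotated canonical transcripts are long, of 4210 bases for MRPS33, 15557 bases for MRPL42 and 3392 bases for MRPS11, against a median of 1242 bases over the members. Without division by length, MRPS33 (21.9 ± 2.04 CPM in PEG and HS, against 21.4 ± 1.15 CPM in Control; SD, n = 3) and MRPS11 (27.6 ± 0.71 against 28.8 ± 1.38 CPM) were also under the median member. MRPL42 had 93.4 ± 5.54 CPM in PEG and HS, against 87.2 ± 4.71 CPM in Control (SD, n = 3), well above the median member. The place of MRPL42 in the order therefore depends on which transcript is taken. In the plot of levels by gene the order is set by CPM per kb, and the media lie close together at each gene.

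**Figure D1:**
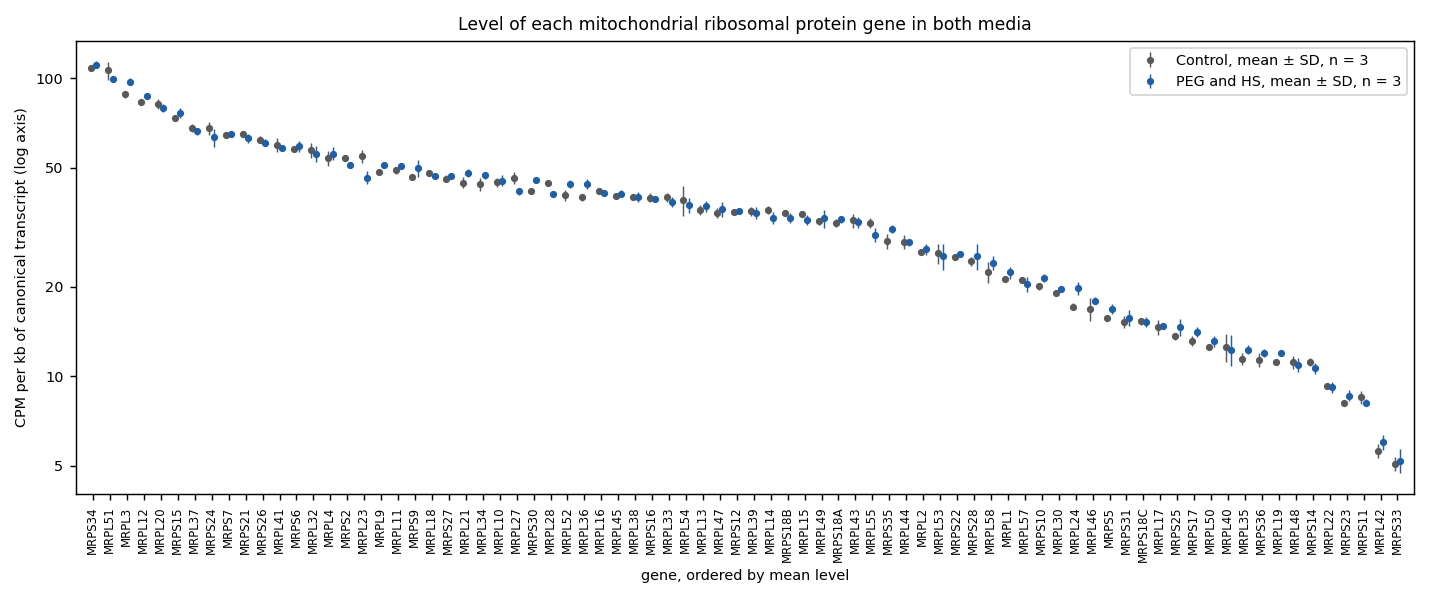
Mean CPM per kb of canonical transcript (log axis, bars ± SD, n = 3 libraries) of the 78 mitochondrial ribosomal protein genes in Control (grey) and PEG and HS (blue), ordered by the mean over all 6 libraries. Levels fall from 110 CPM per kb at MRPS34 to 5.14 at MRPS33, and the gap between the media at a gene is small beside the 21.3-fold range between genes.

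Replicate libraries differed little. The coefficient of variation of a member between libraries of a group had a median of 3.76% in PEG and HS, against 2.91% in Control. Summed over the 78 members, the PEG and HS libraries held 3949, 3913 and 4003 CPM and the Control libraries 3867, 3924 and 3888 CPM, so the genes took 0.387% to 0.400% of the counts and the groups overlapped. The MRPL sum was 2400, 2394 and 2434 CPM in PEG and HS, against 2348, 2409 and 2373 CPM in Control, again with overlap. The MRPS sum was 1548, 1519 and 1569 CPM in PEG and HS, against 1520, 1515 and 1515 CPM in Control, where the lowest PEG and HS library lay just under the highest Control library. The MRPL sum divided by the MRPS sum, not corrected for length, was 1.55 to 1.58 in PEG and HS, against 1.54 to 1.59 in Control. In bulk libraries, fewer cells of a type and less RNA per cell cannot be told apart.

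Between the media, 10 of the 78 members passed the test (edgeR's quasi-likelihood test, adjusted p under 0.05 after Benjamini-Hochberg adjustment over the 16505 genes tested), which is 12.8%. Of all genes tested, 25.3% passed, and of the 10238 genes with a mean CPM at or above that of the lowest member 32.4% passed. Higher in PEG and HS were 7 members (MRPL24, MRPL36, MRPL3, MRPS35, MRPL52, MRPS30 and MRPL19), against 12.2% of all genes. Lower were 3 members (MRPL23, MRPL27 and MRPL28), against 13.1% of all genes. At an unadjusted p under 0.05, edgeR counted 21 members, against 36.0% of all genes. The share of members that passed was thus smaller than the share of all genes.

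The changes were small. Log2 fold changes (PEG and HS over Control) ran from -0.24 to 0.21, with a median of 0.028 over the members and 0.0031 over all genes tested, and 46 were above 0 and 32 below. The median size without sign was 0.05, against 0.12 over all genes. For 76 members the whole 95% interval of the fold lay within 1.2-fold in either direction (97.4%), against 48.2% of all genes and 75.1% of those at or above the level of the lowest member. The exceptions were MRPL23 and MRPL24. When edgeR tested for a change beyond 1.2-fold, no member passed, against 5.26% of all genes (1.30% higher and 3.96% lower). No library of either group lay within the CPM range of the other for 21 members (26.9%), against 39.3% of all genes, and these were the 10 that passed, 7 others with higher values in PEG and HS, against 4 others with lower values.

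**Figure D2:**
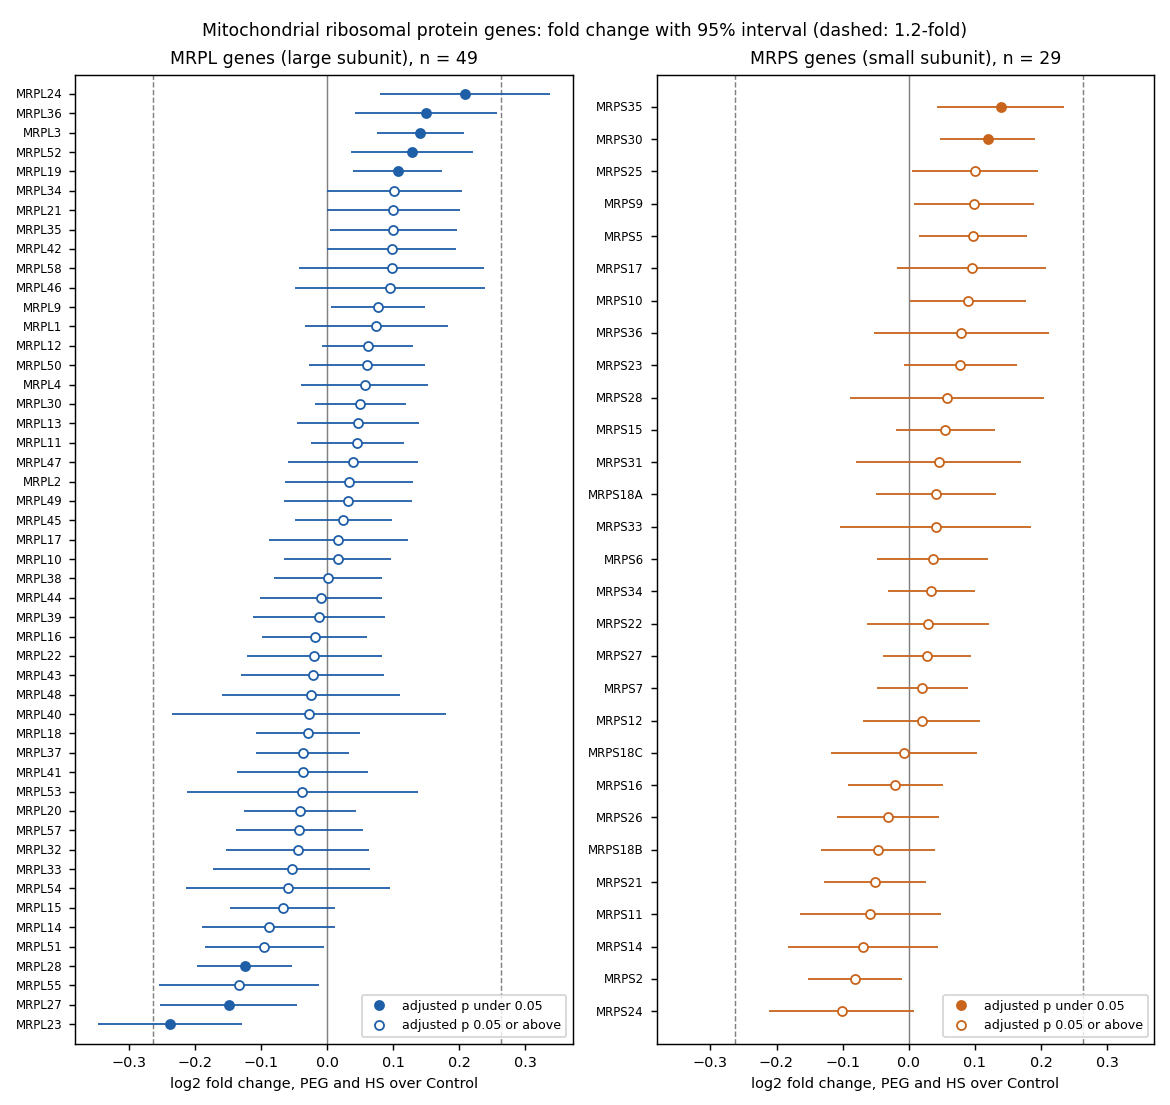
Log2 fold change of PEG and HS over Control for each MRPL gene (left, n = 49) and each MRPS gene (right, n = 29), from edgeR, with 95% intervals, filled where the adjusted p is under 0.05 and dashed at 1.2-fold. Of the 10 filled points 8 are MRPL genes, 5 to the right of 0 and 3 to the left, and the intervals of MRPL24 and MRPL23 alone cross a dashed line.

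By origin of the protein, the 29 large-subunit members with a bacterial homologue held 4 of the higher and all 3 of the lower genes, and the 19 mitochondria-specific ones held 1 higher gene. These are 24.1% and 5.26% of the members concerned, against 25.3% of all genes. Of the 17 small-subunit members with a bacterial homologue, the main edgeR fit called none, with 4 at an unadjusted p under 0.05. Neither DESeq2 nor limma-voom called any. With a trend of the counts with transcript length and GC content removed, edgeR called MRPS5, MRPS9 and MRPS15 (31.7% of all genes called). Without PEG and HS replicate 2 it called MRPS5, MRPS9 and MRPS24 (22.1%). Of the 10 mitochondria-specific small-subunit members 2 were higher (20%, against 25.3% of all genes) and 9 had a log2 fold change above 0. Their summed level, MRPS30 included, was 630, 618 and 629 CPM in PEG and HS, against 605, 597 and 603 CPM in Control, without overlap. The large-subunit members with a bacterial homologue did not overlap either. They summed to 1521, 1522 and 1545 CPM in PEG and HS, against 1487, 1505 and 1502 CPM in Control. The sums of the large-subunit mitochondria-specific members and of the small-subunit bacterial homologues overlapped between the media. The other 3 members, MRPL55, MRPS28 and MRPS36, were not placed by origin, and none passed in edgeR (1 at an unadjusted p under 0.05), DESeq2 or limma-voom. Structures of the ribosome place the proteins of MRPS30 and MRPS18A in the large subunit in spite of their names, and counted that way 1 small-subunit gene was higher.

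MRPL3 had the lowest adjusted p among the higher members. Its product lies in the core of the large subunit, and inherited variants of the gene cause cardiomyopathy. It is encoded at chr3:131462212-131502983. Its level was 168, 162 and 169 CPM in PEG and HS, against 147, 150 and 155 CPM in Control, so the lowest PEG and HS library lay above the highest Control library. The log2 fold change was 0.14 ± 0.031 (SE), a fold of 1.10, with an adjusted p of 0.0034 (edgeR). MRPL3 shares 15.4% of its 31-base words with transcripts of other genes, a pseudogene among them.

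MRPL19, which encodes a protein at the interface of the subunits, had 95.6, 92.3 and 94.0 CPM in PEG and HS, against 85.8, 86.6 and 89.3 CPM in Control. The groups did not overlap, and the log2 fold change was 0.11 ± 0.031 (SE, edgeR adjusted p = 0.0208). MRPL24, whose bacterial homologue starts the assembly of the large subunit, was the member with the largest rise and one of low level. It had 18.5, 17.0 and 17.0 CPM in PEG and HS, against 15.2, 15.5 and 14.7 CPM in Control, with 1 PEG and HS library above the other two. Its log2 fold change was 0.21 ± 0.060 (SE, 95% interval 0.08 to 0.34, edgeR adjusted p = 0.0189).

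MRPL36 encodes a very short large-subunit protein, whose bacterial relative binds zinc. It had 25.8, 27.4 and 27.6 CPM in PEG and HS, against 24.0, 23.7 and 25.0 CPM in Control, a log2 fold change of 0.15 ± 0.050 (SE, edgeR adjusted p = 0.0413), and the gap between the groups was under 1 CPM. MRPL52, a mitochondria-specific protein of the large subunit, had 47.5, 50.6 and 49.3 CPM in PEG and HS, against 45.1, 46.9 and 42.9 CPM in Control. Here too the groups stood apart by less than 1 CPM, and the log2 fold change was 0.13 ± 0.043 (SE, edgeR adjusted p = 0.0395).

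Both MRPS genes that rose encode mitochondria-specific proteins. MRPS35 had 57.2, 55.3 and 58.8 CPM in PEG and HS, against 53.2, 48.3 and 54.2 CPM in Control, where Control replicate 2 was lowest. Its log2 fold change was 0.14 ± 0.045 (SE, edgeR adjusted p = 0.0336). MRPS30 had 76.7, 73.5 and 74.3 CPM in PEG and HS, against 67.3, 68.9 and 70.5 CPM in Control. All 3 PEG and HS libraries were above all Control libraries, with a log2 fold change of 0.12 ± 0.034 (SE, edgeR adjusted p = 0.0165).

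MRPL23 fell most. It encodes the large-subunit protein that sits at the mouth of the tunnel through which the new chain leaves, and lies at chr11:1947278-1984522. Its level was 30.8, 29.9 and 32.9 CPM in PEG and HS, against 34.7, 38.0 and 37.7 CPM in Control. Every PEG and HS library was below every Control library, and the log2 fold change was -0.24 ± 0.051 (SE, 95% interval -0.35 to -0.13), a level 1.18-fold higher in Control, with an edgeR adjusted p of 0.0028. MRPL27 encodes a protein that in bacteria reaches into the site where peptide bonds are made. It had 27.9, 28.5 and 29.5 CPM in PEG and HS, against 30.3, 33.2 and 31.6 CPM in Control, without overlap, and fell by 0.15 on the log2 scale (SE 0.049, edgeR adjusted p = 0.0354).

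MRPL28, another large-subunit protein with a bacterial homologue, had 61.3, 64.1 and 61.7 CPM in PEG and HS, against 66.9, 68.1 and 68.7 CPM in Control. The groups did not overlap, and the log2 fold change was -0.12 ± 0.034 (SE, edgeR adjusted p = 0.0133). Its first exon overlaps PGAP6 on the same strand. PGAP6 moved the other way, from 134 ± 2.19 CPM in Control to 150 ± 2.41 CPM in PEG and HS (SD, n = 3, log2 fold change 0.16, edgeR adjusted p = 0.0005). How reads in the shared bases were counted is not given in the sources used here, and the part of this overlap in the value of MRPL28 was not tested.

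**Figure D3:**
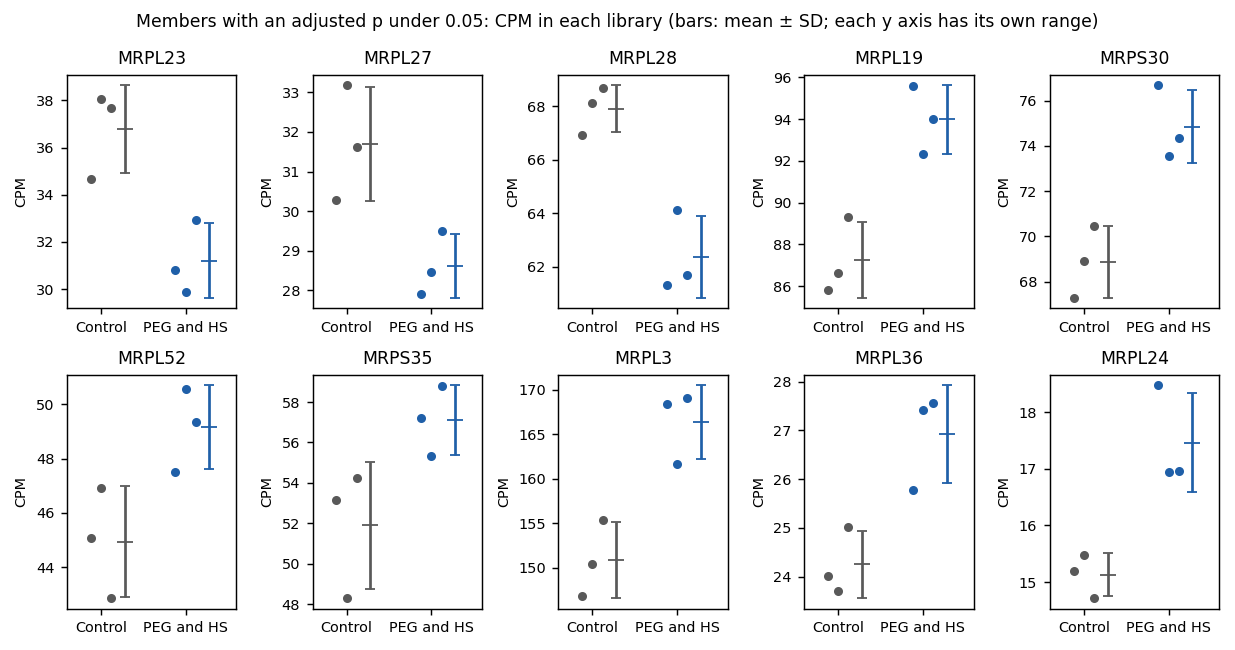
CPM in each library (points) of the 10 mitochondrial ribosomal protein genes with an adjusted p under 0.05, in Control (grey) and PEG and HS (blue), with mean ± SD (n = 3) beside the points; each y axis has its own range and does not start at 0. In every panel the 3 PEG and HS points lie all above or all below the Control points, from MRPL23, lower by 0.24 on the log2 scale, to MRPL24, higher by 0.21.

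How firmly a call stood differed between these genes. With each library left out in turn, MRPL3 (adjusted p 0.0030 to 0.0285) and MRPL23 (0.0017 to 0.0178) passed in all 6 fits. MRPL28 was lost without PEG and HS replicate 1 (adjusted p 0.0607), and MRPL24 without PEG and HS replicate 1 or Control replicate 3 (up to 0.0988). MRPS30 (up to 0.0846) and MRPL19 (up to 0.0950) were lost without PEG and HS replicate 1, Control replicate 1 or Control replicate 2. MRPS35 (up to 0.177) was lost without any of these 3 or PEG and HS replicate 3. MRPL36 (up to 0.133) passed only without PEG and HS replicate 1 or Control replicate 3, MRPL52 (up to 0.160) only without PEG and HS replicate 1 or Control replicate 2, and MRPL27 (up to 0.142) only without PEG and HS replicate 3 or Control replicate 1. Members that passed numbered 4 without PEG and HS replicate 1 (19.0% of all genes), 11 without replicate 2 (22.1%) and 8 without replicate 3 (22.5%). They numbered 5 without Control replicate 1 (21.1%), 5 without replicate 2 (19.9%) and 8 without replicate 3 (22.5%).

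The tool, the scaling and the filter were changed in the same way. The size factors of DESeq2 (25.2% of all genes called), library size alone (25.8%), limma-voom (25.3%), no filter beyond 1 count (23.4%) and a filter of 1 CPM in 3 libraries (31.3%) each called 10 members, all of them those given above. Upper-quartile scaling called 8 of them (25.1%). DESeq2 called 3 higher and 2 lower, against 23.3% of all genes. When the trend of the counts with transcript length and GC content was removed, 19 members were higher and 1 was lower, in place of 7 and 3, against 20.9% and 10.8% of all genes (31.7% in all), and the median over all genes then stood at 0.04. With that trend fitted on genes of at least 1 CPM and centred at a median of 0, 6 were higher and 4 lower, against 13.4% and 14.5% (27.9% in all), and 8 of the 10 members called were those given above.

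The stalk of the large subunit, which draws translation factors to the ribosome, is made of MRPL10, MRPL11 and MRPL12. MRPL10 had 76.2, 82.8 and 78.5 CPM in PEG and HS, against 75.6, 80.6 and 78.3 CPM in Control, so the groups overlapped fully (log2 fold change 0.02, edgeR adjusted p = 0.807). MRPL11 gave 0.05 (adjusted p = 0.354) and MRPL12 0.06 (adjusted p = 0.195). None of the 3 passed in the main edgeR fit, DESeq2 or limma-voom or had an unadjusted p under 0.05 in the main edgeR fit. With the length and GC trend removed, MRPL11 and MRPL12 passed in edgeR (31.7% of all genes called). MRPL12 also passed with the centred trend (27.9%). In the main fit the 95% intervals of the 3 genes ran from -0.06 to 0.13 in all, which leaves out a change of 1.2-fold. MRPL12 shares 68.5% of its words with other transcripts, mostly with a readthrough gene (ENSG00000262660) that had 0 counts in each PEG and HS library and 0, 7 and 13 counts in the Control libraries.

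MRPS18A, MRPS18B and MRPS18C are paralogues descended from 1 bacterial protein, and a ribosome holds them at different places. MRPS18A had 37.8, 39.6 and 39.8 CPM in PEG and HS, against 37.0, 37.6 and 39.2 CPM in Control (log2 fold change 0.04). MRPS18B had 46.3, 46.7 and 49.8 CPM in PEG and HS, against 50.1, 49.4 and 48.2 CPM in Control (-0.05), and MRPS18C had 24.3, 22.6 and 23.8 against 23.5, 24.5 and 23.1 CPM (-0.01). The groups overlapped for all 3, with edgeR adjusted p-values of 0.537, 0.447 and 0.938, and no tool called any of them. Per length MRPS18C was the lowest, at 15.2 ± 0.46 CPM per kb (SD, n = 6), below every library of MRPS18A (33.1 ± 1.02) and MRPS18B (34.6 ± 1.15). The ranges of MRPS18A and MRPS18B overlapped.

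Neighbouring genes touch several members. Exons of 41 members overlap exons of another annotated gene, 18 of them on the same strand and 30 on the opposite strand. MRPL53, which shares 66.3% of its words, mainly with CCDC142, had 11.2 to 13.7 CPM in PEG and HS, against 12.1 to 13.9 CPM in Control (log2 fold change -0.04, edgeR adjusted p = 0.789). MRPL9, whose first exon overlaps a lncRNA, had 61.3, 63.0 and 63.7 CPM in PEG and HS, against 59.5, 59.7 and 59.1 CPM in Control, and MRPS17, whose first exon overlaps NIPSNAP2, had 26.1, 24.2 and 24.9 against 23.3, 24.5 and 22.7 CPM. Their log2 fold changes were 0.08 and 0.10, with edgeR adjusted p-values of 0.111 and 0.216. The levels of members that share sequence are uncertain where reads could be counted for either gene.

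Nuclear genes that work with the ribosome were counted by role, and the counts below stand against 12.2% of all genes higher and 13.1% lower. Of the 5 ribosomal proteins with other names (DAP3, CHCHD1, AURKAIP1, PTCD3 and GADD45GIP1) none passed in edgeR, DESeq2 or limma-voom, and none had an unadjusted p under 0.05 in edgeR. Their log2 fold changes were -0.03 to 0.06. Of 14 translation factors 2 were higher and none lower (none also at an unadjusted p under 0.05, in DESeq2 or in limma-voom). These were MRRF, which recycles the ribosome after termination, with 36.1, 34.4 and 33.9 CPM in PEG and HS, against 29.5, 29.6 and 30.2 CPM in Control (log2 fold change 0.23, edgeR adjusted p = 0.0014), and GUF1, a GTPase of elongation (0.13, adjusted p = 0.0240). For both genes all PEG and HS libraries lay above all Control libraries.

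Of 23 genes of ribosome assembly and rRNA modification 2 were higher and 1 lower. TFB1M, which methylates the small-subunit rRNA, had 21.1, 23.4 and 21.9 CPM in PEG and HS, against 18.6, 18.6 and 19.3 CPM in Control, a log2 fold change of 0.23 (edgeR adjusted p = 0.0071). ERAL1, which binds the same rRNA, rose by 0.15 on the log2 scale (adjusted p = 0.0031), and DDX28, a helicase of the large subunit's assembly, fell by 0.18 on the log2 scale (adjusted p = 0.0246). The list of mitochondrial aminoacyl-tRNA synthetases, which charge tRNAs with their amino acids, had 7 of 22 genes higher and 1 lower. This list also holds QRSL1, GATB and GATC, which are not synthetases and did not pass. MARS2 had 32.0, 35.4 and 33.3 CPM in PEG and HS, against 26.8, 27.2 and 27.3 CPM in Control (log2 fold change 0.31, adjusted p = 0.0002), HARS2 gave 0.21 (0.0055) and AARS2 gave -0.12 (0.0250). GARS1 and KARS1, also among the higher ones, make both the mitochondrial and the cytosolic enzyme.

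Of 11 genes listed for the transcription and copying of mitochondrial DNA, POLRMT, the mitochondrial RNA polymerase, was the 1 that passed (log2 fold change 0.09, edgeR adjusted p = 0.0471). DESeq2 called 0 genes of this list. TFAM, which packs mitochondrial DNA, had 126, 122 and 126 CPM in PEG and HS, against 117, 114 and 123 CPM in Control, with overlap (0.08, adjusted p = 0.116). Of 8 regulators 3 were higher, and none was lower in edgeR (none at an unadjusted p under 0.05), DESeq2 or limma-voom. GABPB1, a subunit of the ETS factor GABP, had 45.7, 42.8 and 44.4 CPM in PEG and HS, against 39.1, 36.8 and 37.6 CPM in Control (log2 fold change 0.23, adjusted p = 0.0009), and PPARGC1B, a coactivator, gave 0.17 (adjusted p = 0.0165). GABPA, also a subunit of GABP, gave 0.05 (edgeR adjusted p = 0.533). NRF1 and YY1, whose letters were searched above, gave 0.06 (adjusted p = 0.419) and 0.03 (adjusted p = 0.513). The groups overlapped for GABPA, NRF1 and YY1. Pooled, 15 of the 83 nuclear genes of these lists were higher and 2 lower (20.5% called, against 25.3% of all genes and 32.4% of those at or above the level of the lowest member), with a median log2 fold change of 0.05.

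**Figure D4:**
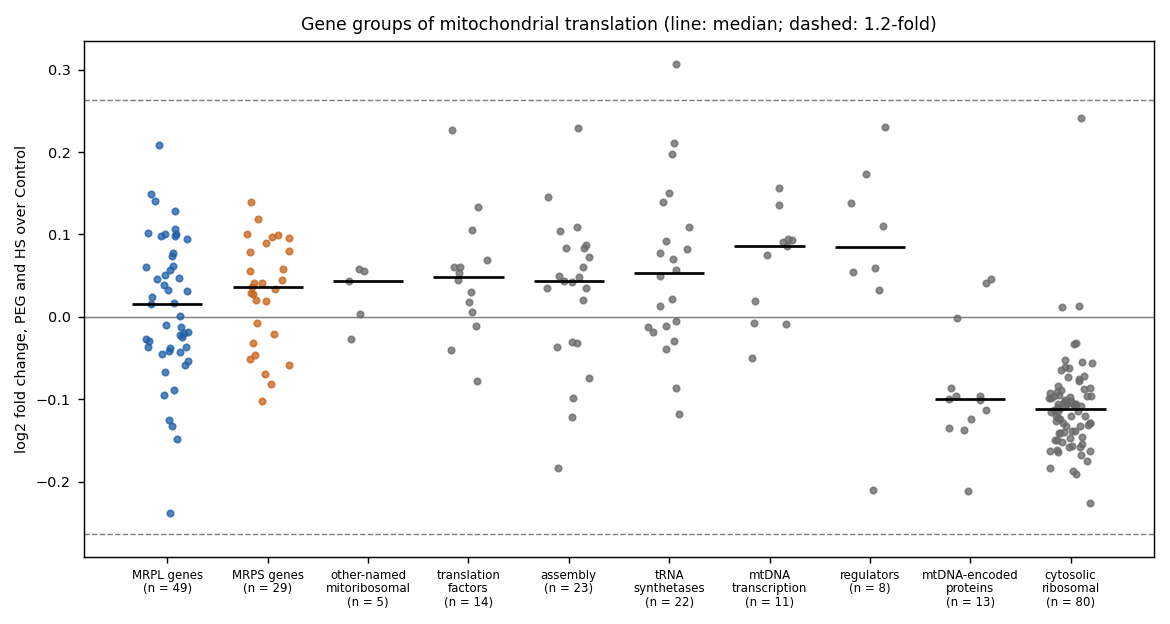
Log2 fold change of PEG and HS over Control of each gene (points) in gene groups around mitochondrial translation and in the cytosolic ribosomal protein genes, with the median of each group (line) and dashes at 1.2-fold. The MRPL and MRPS genes spread on both sides of 0, while 11 of 13 mitochondrially encoded and 77 of 80 cytosolic ribosomal protein genes lie below 0.

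The proteins that this ribosome makes are encoded by 13 genes of mitochondrial DNA. In edgeR 8 of them were lower, against 13.1% of all genes. None of these genes was higher in edgeR (none at an unadjusted p under 0.05), DESeq2 or limma-voom. Their sum was 49961, 49774 and 45376 CPM in PEG and HS, against 51612, 50500 and 50379 CPM in Control, so all PEG and HS libraries lay below all Control libraries and replicate 3 was lowest. MT-ND1, a core subunit of complex I, had 2255, 2273 and 2178 CPM in PEG and HS, against 2588, 2604 and 2572 CPM in Control and fell by 0.21 on the log2 scale (SE 0.024). MT-ND6, the 1 protein gene of the other DNA strand, fell by 0.14 on the log2 scale (SE 0.034, edgeR adjusted p = 0.0072). Without PEG and HS replicate 3 (22.5% of all genes called in either direction), 5 were lower and 1, MT-ND4, was higher (0.09, edgeR adjusted p = 0.0144). Library size alone as the scaling (25.8%), or leaving out Control replicate 1 (21.1%) or 3 (22.5%), also left 5 lower. Libraries were enriched for polyadenylated RNA, and whether the transcripts of all 13 genes carry poly(A) tails alike was not tested. The strand setting of the read counting is not given. The value of MT-ND6 may therefore hold reads from the opposite strand, which was not tested.

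The cytosolic ribosomal protein genes, which encode the ribosome that makes the mitochondrial ribosomal proteins, were chosen by name in the same way. Of 80 tested genes 56 were lower in edgeR, against 13.1% of all genes, with a median log2 fold change of -0.11. None of these genes was higher in edgeR (none at an unadjusted p under 0.05), DESeq2 or limma-voom. Their sum was 55680, 55970 and 57997 CPM in PEG and HS, against 60330, 63811 and 60083 CPM in Control, without overlap. RPL13A had the largest fall, of 0.23 on the log2 scale (edgeR adjusted p = 6.7e-05). The count of lower genes was 34 without PEG and HS replicate 1 (19.0% of all genes called in either direction) and 32 without Control replicate 2 (19.9%). The difference between the 2 groups of genes was not tested.

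Markers of other cell types moved between the same libraries, and their part in the values above was not tested. The 10 pluripotency genes summed to 10308 to 10511 CPM in PEG and HS, against 10414 to 10595 CPM in Control, with 4 higher and 4 lower, so the defining genes of the labelled cell type were present in both media. The 10 neuroectoderm genes were all lower, with 572 to 611 CPM in PEG and HS, against 788 to 819 CPM in Control. NES made up most of both sums, at 543 against 643 CPM (log2 fold change -0.24). SOX1 stood at 1.32 against 4.29 CPM and OTX2 at 18.6 against 79.4 CPM, and FEZF2 and HES5 had at most 23 counts in a library. Of 7 tested trophectoderm and amnion genes 4 were lower (5.38 to 5.64 against 14.9 to 15.8 CPM in sum), and CDX2 averaged at most 0.02 CPM in either group. Of 8 mesoderm genes 3 were lower in edgeR and 1 in DESeq2 (7.98 to 9.46 against 10.1 to 11.3 CPM), and TBXT was at 0.16 and 0.31 CPM. HAND1 and MEOX1, among the 3, had at most 7 counts in any library. HAND1 is also among the lower trophectoderm and amnion genes. MIXL1 was higher in every PEG and HS library (mean 1.95 against 1.42 CPM) but did not pass (edgeR adjusted p = 0.122). The marker counts stand against 12.2% of all genes higher and 13.1% lower. The endoderm genes summed to 4.11 to 4.66 CPM in PEG and HS, against 5.27 to 6.34 CPM in Control, with none of 5 called by edgeR (1 at an unadjusted p under 0.05), DESeq2 or limma-voom. The 7 mesenchymal genes had 4 lower and 1 higher, THY1, and summed to 565 to 599 CPM against 487 to 526 CPM. Without THY1 the other 6 summed to 168 to 177.2 CPM in PEG and HS, against 231 to 258 CPM in Control, the opposite direction.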

How the data were processed

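Bulk RNA of 6 NCRM-1 samples, 3 in PEG and HS and 3 in Control, was sequenced by the authors from stranded, poly(A)-enriched libraries. Per the labels and the methods, reads were trimmed with Trim Galore 0.6.7 and mapped to GRCh38 with STAR 2.6.1 inside an nf-core pipeline. The authors deposited raw counts per gene, 1 library per file. How reads were counted (tool, strand, multi-mapping reads, annotation release) is not given in the sources used here. The study used DESeq2.

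Of the 19977 gene identifiers, 19916 matched GENCODE 44, which gave symbols, coordinates and transcript lengths. Genes with at least 10 counts over all libraries (16505) were fitted with edgeR 4.0.16 (TMM, glmQLFit, glmQLFTest, no covariate) in R 4.3.3, with Benjamini-Hochberg adjustment over them. SE was obtained from the log2 fold change and the F statistic, and 95% intervals use the t distribution with edgeR's degrees of freedom. The common biological coefficient of variation was 3.12% at 26991279 to 36185138 counts per library, which resolves small differences in genes at the level of the members. Alternatives were DESeq2 1.42.0, limma-voom (3.58.1), other scalings and filters, a replicate block, each library left out, stricter tests, and removal of a length and GC trend (mgcv 1.9.3), whose centred form was added after the data were seen. Shared sequence is the percent of a gene's 31-base words found in transcripts of other genes. On counts simulated for this comparison (16406 genes, 200 changed), edgeR recovered 73.1% of 1.2-fold, 98.5% of 1.5-fold and 100% of 2-fold changes, made 11 false calls, and made 0 calls with no gene changed. The simulation gave every gene the common dispersion and drew the changed genes from those over 1 CPM. These rates may therefore differ for the real data and for the members.

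Members and lists were chosen with earlier results of these data known. Named are the up to 8 called members with the largest change in each direction, the 3 most and 3 least abundant per kb, the stalk, the MRPS18 paralogues, members sharing at least 50% of their sequence or whose first exon overlaps a gene of the same strand, and, from each other list of mitochondrial translation, the up to 2 called genes that changed most in either direction. Other genes were named after their values were seen. Promoter windows are from RefSeq (GRCh38.p14). The 9 members without one are MRPL2, MRPL10, MRPL13, MRPL15, MRPL21, MRPL23, MRPL35, MRPS28 and MRPS36.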

Additional observations from a re-analysis of the deposited data

How the results depend on the processing

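Depth limits little here, since the lowest count of a member in a library was 224, but with 3 libraries a group the calls close to the threshold depend on single libraries. Higher members numbered 7, with 3 in DESeq2, 0 when tested against a 1.2-fold change, 19 with the length and GC trend removed and 1 at an adjusted p under 0.01, and lower members numbered 3, with 0, 1 and 1 in the last 3 of these. For the large subunit these counts were 5 higher, with 3 under upper-quartile scaling, 2 in DESeq2, 0 against 1.2-fold, 12 with the trend removed and 1 at 0.01, and 3 lower, with 0, 1 and 1. For the small subunit they were 2 higher, with 1 in DESeq2, 0 against 1.2-fold, 7 with the trend removed, 1 with the centred trend, 0 at 0.01 and 1 with MRPS18A and MRPS30 counted as large. The cause of these shifts was not tested, apart from the stricter tests, which pass fewer genes by construction. The share of all genes that passed at 0.01 is not given, so the counts at 0.01 here and below have no background. Leaving out each library in turn gave 2 to 8 higher and 1 to 3 lower members, 2 to 4 higher and 1 to 3 lower in the large subunit, and 0 to 4 higher and 0 to 1 lower in the small subunit. The median log2 fold change of the members, 0.028, was 0.044 with the trend removed (0.039 over all genes) and 0.0046 with the centred trend (-0.00084 over all genes).

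Other nuclear genes of mitochondrial translation had 15 higher, with 0 against 1.2-fold, 30 with the trend removed, 9 at 0.01 and 10 to 14 with a library left out. They had 2 lower, with 0 in DESeq2, against 1.2-fold, with the trend removed and at 0.01, and 0 to 2 with a library left out. Mitochondrially encoded genes had 8 lower, with 5 for library size alone, 0 against 1.2-fold, 5 with the trend removed, 5 at 0.01, 5 to 8 lower and 0 to 1 higher with a library left out. Cytosolic ribosomal protein genes had 56 lower, with 0 against 1.2-fold, 32 at 0.01 and 32 to 65 with a library left out.

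Of 432 values of the 24 named members under these alternatives, 360 kept both sign and call, 54 lost the call, 9 gained it and 9 changed sign, all 9 in members without a call. With a library left out, MRPS33 ran from -0.016 (without PEG and HS replicate 1) to 0.109, and MRPL10 from -0.016 (without PEG and HS replicate 2; -0.0095 without Control replicate 1) to 0.043. MRPS18C ran from -0.031 to 0.020 (without PEG and HS replicate 2; 0.014 without Control replicate 2) and was 0.0015 with library size alone. MRPL53 ran from -0.105 to 0.039 (without PEG and HS replicate 1; 0.027 without Control replicate 2) and was 0.018 with the trend removed.

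Libraries with the same replicate number did not deviate together (correlations of 0.0052, 0.014 and 0.0039), and 4 of 6 correlated best with their own number, so the number was not taken as a pairing. With the replicate block the calls were the same 10 members, 7 higher and 3 lower, and 26.9% of all genes passed.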
